A study of Homo sapiens with 30 samples.

Results

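The RNA levels of 32 genes of nucleotide synthesis were examined in 2 human cancer cell lines treated with Omomyc, a miniprotein derived from the dimerization and DNA binding region of Myc that inhibits Myc/Max. The genes are a given list of purine, pyrimidine and deoxynucleotide synthesis enzymes with their salvage partners, and were found by symbol among the 57992 genes of the deposited table, in which all 32 have a row. HCT116 cells are a colon carcinoma line whose MYC status the labels give as stabilized, and Ramos cells are a Burkitt's lymphoma line with a MYC translocation. HCT116 cells were untreated or were given 2 or 10 μM Omomyc for 6 or 24 h, and Ramos cells were untreated or were given 0.5 or 2.5 μM Omomyc for 6 or 24 h, with 3 libraries in each of the 10 groups and 30 libraries in all. Each line has 1 untreated group, with no time point, and its 3 libraries served in all 4 comparisons of that line. In these comparisons an effect of Omomyc and an effect of time in culture or handling cannot be told apart. The lower HCT116 dose is 2 μM in the labels and 2.5 μM in the study's methods, and a time tag of 4 h stands beside titles of 24 h, which were used. ProteoJuice, which carries protein into cells, was added with Omomyc to HCT116 cells. Whether untreated HCT116 cells received it is unclear, and for Ramos cells no reagent is described, so an effect of Omomyc and an effect of the reagent cannot be told apart in HCT116 cells. No source states that the 3 libraries of a group came from separate cultures, so p-values measure the spread between these libraries, which may be technical.

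Cells make purine nucleotides by building the ring stepwise on phosphoribosyl pyrophosphate (PRPP), and pyrimidine nucleotides by making the ring first and joining it to PRPP afterwards. Ribonucleotide reductase turns ribonucleotides into deoxynucleotides for DNA, and thymidylate synthase makes thymidylate from deoxyuridylate. Salvage enzymes and transporters recover bases and nucleosides from inside and outside the cell. Myc is known to activate many of these genes through E boxes, short DNA sequences that Myc/Max dimers bind, and Omomyc can occupy the same sequences. Supply of nucleotides is needed most when DNA is copied, and several of the deoxynucleotide enzymes are made mainly in cells that enter or pass through S phase.

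The canonical E box, CACGTG, which reads the same on both strands, was searched in RefSeq promoter windows that run from 250 bases before to 50 bases after each annotated start. Of 30 members with a window, 7 (23.33%) held the motif, and of 27305 genes with a window 2396 (8.77%) did. Counted by window, 2548 of 35116 (7.26%) held it. The 8 matches are shown because Omomyc was designed against dimers that bind this sequence. Each is printed 5′ to 3′ on the strand of its gene with the motif in capitals and up to 12 bases on each side within the window, in GRCh38.p14.
ATIC upstream, chr2:215312001-215312030, + strand: gggccggcgggcCACGTGataagcccggaa
ATIC downstream, chr2:215312076-215312105, + strand: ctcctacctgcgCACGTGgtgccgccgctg
PPAT, chr4:56435780-56435809, - strand: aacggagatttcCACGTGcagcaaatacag
PAICS, chr4:56435780-56435801, + strand: ctgtatttgctgCACGTGgaaa
SLC29A1, chr6:44219365-44219387, + strand: cagtgCACGTGctcccaggtctc
DCTPP1, chr16:30429792-30429821, - strand: ggagggttcctcCACGTGgtcgggaagcgg
DHODH, chr16:72008573-72008602, + strand: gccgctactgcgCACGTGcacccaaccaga
NME1, chr17:51153581-51153608, + strand: agtgctgcgaacCACGTGggtcccgggc
PPAT and PAICS, the genes of the first and a middle enzyme of the purine ring pathway, lie head to head, and their matches are 1 site read on opposite strands. Relative to the annotated start, the first base of the motif lay at -46 and 30 in ATIC, -182 in PPAT, 41 in PAICS, -245 in SLC29A1, -9 in DCTPP1, -159 in DHODH and 35 in NME1. A match describes letters in a window and was not tied to binding in these cells. The windows of the other 23 of the 30 members held no CACGTG, and IMPDH2 and ADSL had no window.

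The deposited values are RPKM, read counts divided by gene length and by the reads of the library, and the number of reads per library is unknown. Changes are given on the log2(RPKM + 0.5) scale, tested with limma across all genes whose RPKM averaged 0.5 or more over the libraries compared, and called at a Benjamini-Hochberg adjusted p under 0.05. All 32 members passed the filter in every comparison. RPKM summed over all genes was 593633 to 660769 in untreated HCT116 libraries and reached 1051041 in replicate 3 of 10 μM at 6 h, whose mates were at 791845 and 795720, while Ramos libraries ranged from 783788 to 973736. That replicate stood apart from its mates by over 0.3 in log2 RPKM in 12 of the 32 members, against 0 to 7 in the other 29 libraries. The 7 was that of its mate, replicate 2, and the highest outside its group was 2. The share of mitochondrial genes was 0.401 to 0.520% in untreated HCT116 libraries, 0.818 to 3.12% in treated ones and 0.191 to 0.273% in Ramos libraries. Of 6 colon epithelial markers, 4 were at 1 RPKM or more in every HCT116 library, while CDX1 and VIL1 were under 1 in every one, and their sum of 1033 to 1631 in HCT116 cells was 0 to 1.18 in Ramos cells. All 6 B cell markers were expressed in Ramos cells, with sums of 1498 to 1672 against 0.737 to 3.08 in HCT116 cells. In such bulk samples, a lower level of a transcript in every cell and fewer cells that express it cannot be told apart. MYC RNA gave log2 differences of 0.40, 0.35, -0.30 and -0.30 in HCT116 cells (2 and 10 μM at 6 h, then at 24 h), of which all but 10 μM at 6 h (adjusted p = 0.128) were called. In Ramos cells the differences were 0.039, 0.35, 0.041 and 0.27 (0.5 and 2.5 μM at 6 h, then at 24 h), and both 2.5 μM groups were called.

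Untreated cells of both lines expressed all 32 genes, from 7.13 ± 0.557 RPKM for ADA to 523 ± 26.0 RPKM for NME2 in HCT116 cells and from 9.29 ± 0.647 RPKM for DHODH to 697 ± 25.5 RPKM for NME2 in Ramos cells (mean ± SD, n = 3). NME2, NME1 and IMPDH2 were the 3 most abundant in both lines, in that order. NME1 and NME2 encode nucleoside diphosphate kinases, and a read-through gene on the same strand covers both, so that the division of reads between them is uncertain. Between the untreated lines, 14 members (43.8%) were higher in HCT116 cells, against 45.7% of 15647 genes tested, and 15 (46.9%) were higher in Ramos cells, against 39% of all genes. With every library scaled to an equal sum of RPKM the split was 22 to 3, and 8 of the 15 that were higher in Ramos cells changed sign. TK1, the cytosolic thymidine kinase of the salvage route to thymidylate, had 179, 177 and 184 RPKM in HCT116 and 24.5, 23.9 and 29.9 RPKM in Ramos libraries. The values did not overlap, and the fold difference of 6.83 (log2 difference 2.77 ± 0.085 (SE), adjusted p = 8.27e-08) was the largest of any member. TYMS, thymidylate synthase, differed the same way (1.63 ± 0.10 (SE), adjusted p = 2.9e-06), while GUK1, the guanylate kinase, was lower in HCT116 cells (-1.18 ± 0.093 (SE), adjusted p = 1.42e-05). Those 3 differences kept their sign under equal-sum scaling, as did the difference in UMPS, the enzyme that completes uridine monophosphate (1.03 ± 0.052 (SE), adjusted p = 1.18e-06).

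**Figure D1:**
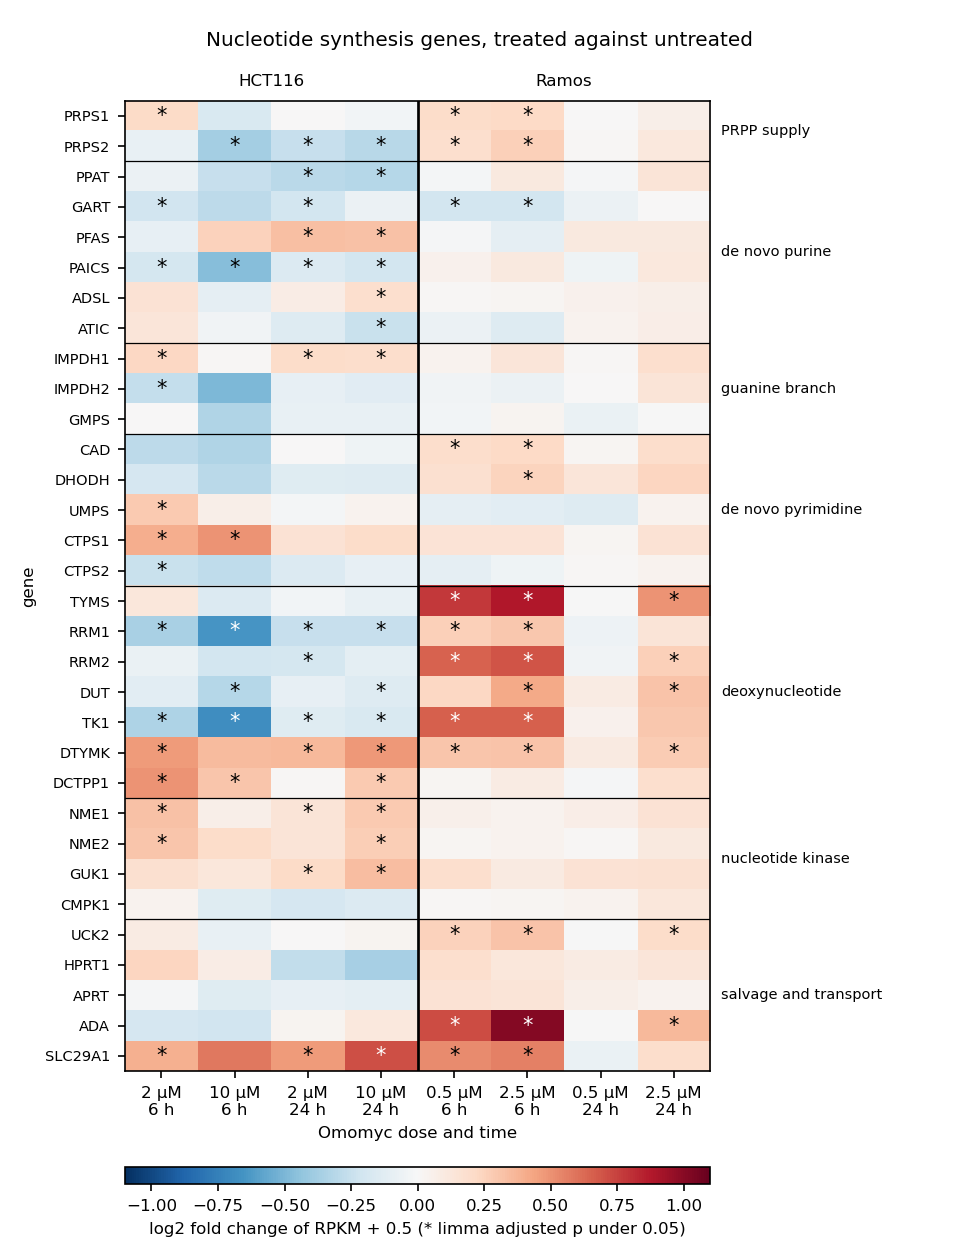
Log2 fold change (RPKM + 0.5, color scale from -1.1 to 1.1) of each of the 32 genes in rows, ordered by role, for the 8 comparisons of treated with untreated cells in columns (n = 3 libraries per group), with asterisks at adjusted p under 0.05 (limma). In Ramos cells the asterisks at 6 h mark rises in all but GART and lie mainly in the deoxynucleotide and salvage rows, whereas HCT116 cells show rises and falls in every comparison.

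In Ramos cells at 6 h, genes of deoxynucleotide synthesis, nucleoside salvage and nucleoside transport were higher than in untreated cells at both doses. GART was lower. At 0.5 μM, 11 members (34.4%) rose, against 13.8% of 13614 genes tested, and 1 (3.12%) fell, against 9.73% of all genes. At 2.5 μM, 13 (40.6%) rose, against 17.3% of 13595 genes, and 1 (3.12%) fell, against 10.7%. The libraries of 14 members (43.8%) at 0.5 μM and 20 (62.5%) at 2.5 μM did not overlap with the untreated ones, against 41.4% and 44.7% of all genes. The median change over the members was 0.16 and 0.13, beside 0.022 and 0.034 over all genes tested. Of the 7 deoxynucleotide genes, 5 rose at 0.5 μM and 6 at 2.5 μM. TYMS (ENSG00000176890, chr18:657604-673578), whose product makes thymidylate from deoxyuridylate, had 34.5, 30.4 and 30.5 RPKM in untreated cells, 54.6, 54.7 and 54.4 RPKM at 0.5 μM and 59.1, 58.1 and 58.7 RPKM at 2.5 μM. Every treated library lay above every untreated one, and the replicates of a dose differed by less than the gap between the groups. The change was 0.77 ± 0.059 (SE), adjusted p = 0.000124 at 0.5 μM and 0.88 ± 0.057 (SE), adjusted p = 3.95e-05 at 2.5 μM. TYMS is overlapped on the opposite strand by ENOSF1 and TYMSOS, and as the strand setting of the counting is not given, reads of these genes cannot be told apart. The same limit holds for other members. Another gene overlaps 8 members on the same strand, among them RRM2 (AC007240.1) and UCK2, and 8 on the other strand only. The latter include RRM1, DUT, PPAT and DCTPP1.

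Ribonucleotide reductase, the enzyme that makes deoxyribonucleotides, is built from a large subunit encoded by RRM1 and a small subunit encoded by RRM2. RRM2 (ENSG00000171848, chr2:10120698-10131419) had 135, 127 and 125 RPKM in untreated Ramos cells, 193, 205 and 210.4 RPKM at 0.5 μM and 201, 205 and 219.6 RPKM at 2.5 μM at 6 h. All 6 treated libraries were above the 3 untreated ones, with a change of 0.65 ± 0.051 (SE), adjusted p = 0.000139 and 0.69 ± 0.049 (SE), adjusted p = 6.49e-05, respectively. RRM1 (ENSG00000167325, chr11:4094707-4138876) rose by less, 0.26 ± 0.041 (SE), adjusted p = 0.00242 and 0.30 ± 0.048 (SE), adjusted p = 0.00236. TK1 (ENSG00000167900, chr17:78174075-78187233) had 24.5, 23.9 and 29.9 RPKM in untreated cells, 39.5, 43.2 and 41.2 RPKM at 0.5 μM and 41.1, 41.5 and 41.0 RPKM at 2.5 μM. The highest untreated library, replicate 3, was below every treated one, and TK1 rose by 0.66 ± 0.085 (SE), adjusted p = 0.00091 and 0.66 ± 0.08 (SE), adjusted p = 0.000657. DTYMK, the thymidylate kinase that acts after both TYMS and TK1, rose by 0.31 ± 0.046 (SE), adjusted p = 0.00189 and 0.31 ± 0.048 (SE), adjusted p = 0.00195. DUT, the dUTPase that keeps uracil out of DNA, rose at 2.5 μM (0.42 ± 0.10 (SE), adjusted p = 0.0148) and at 0.5 μM gave a value of 0.23 with an adjusted p of 0.0637. DCTPP1, a pyrophosphatase that clears deoxycytidine triphosphate and its modified forms, was not called at either dose (0.021 and 0.09).

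ADA, adenosine deaminase, which converts adenosine and deoxyadenosine to their inosine forms, gave the largest change of any member at 2.5 μM (ENSG00000196839, chr20:44619522-44652233). Its levels were 11.3, 10.8 and 11.7 RPKM in untreated Ramos cells, 17.1, 19.4 and 20.5 RPKM at 0.5 μM and 22.7, 21.2 and 26.0 RPKM at 2.5 μM. The lowest treated library, replicate 1 at 0.5 μM, was above the highest untreated one. The change was 0.72 ± 0.079 (SE), adjusted p = 0.000425 at 0.5 μM and 1.01 ± 0.08 (SE), adjusted p = 8.88e-05 at 2.5 μM, the latter a fold of 2.01 on the RPKM + 0.5 scale. ADA is overlapped by PKIG on the opposite strand. SLC29A1, the equilibrative nucleoside transporter ENT1 of the plasma membrane (ENSG00000112759, chr6:44219505-44234151), had 35.3, 35.6 and 37.2 RPKM untreated, 50.7, 53.5 and 51.9 RPKM at 0.5 μM and 52.7, 52.1 and 54.2 RPKM at 2.5 μM, and rose by 0.52 ± 0.048 (SE), adjusted p = 0.000212 and 0.55 ± 0.044 (SE), adjusted p = 9.11e-05. UCK2, the uridine and cytidine kinase of salvage, rose by 0.26 and 0.31 (adjusted p = 0.0161 and 0.0018). HPRT1 and APRT, which return purine bases to nucleotides, were not called at either dose, with values of 0.18 and 0.12 for HPRT1 and 0.16 and 0.14 for APRT.

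In Ramos cells at 6 h, both PRPP supply genes were called at each dose, with 1 of 6 purine ring genes and 1 and 2 of 5 pyrimidine genes. PRPS1 and PRPS2, which make PRPP, rose at both doses by 0.18 to 0.26. CAD, which carries the first steps of pyrimidine synthesis on 1 polypeptide, rose by 0.19 and 0.22, and DHODH, the mitochondrial dehydrogenase of that pathway, rose at 2.5 μM alone (0.24, adjusted p = 0.037). The difference between the doses in DHODH was not called (adjusted p = 0.823). The purine ring gene was GART. GART (ENSG00000159131, chr21:33503931-33543491), a trifunctional enzyme of the purine pathway, had 103, 107 and 99.1 RPKM untreated, 92.3, 89.2 and 86.4 RPKM at 0.5 μM and 88.3, 91.2 and 88.7 RPKM at 2.5 μM, with no overlap, and fell by 0.21 and 0.20 (adjusted p = 0.0155 and 0.0086). SON overlaps GART on the opposite strand, and GART was not called under equal-sum scaling at either dose. None of the 3 guanine branch genes or of the 4 nucleotide kinases was called at either dose. Under every alternative run, 7 of the 12 calls at 0.5 μM were kept in the same direction (ADA, DTYMK, RRM1, RRM2, SLC29A1, TK1 and TYMS), and 9 of the 14 at 2.5 μM (those genes, PRPS1 and UCK2). Without replicate 2 of 0.5 μM, 7 members were called in place of 12.

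**Figure D2:**
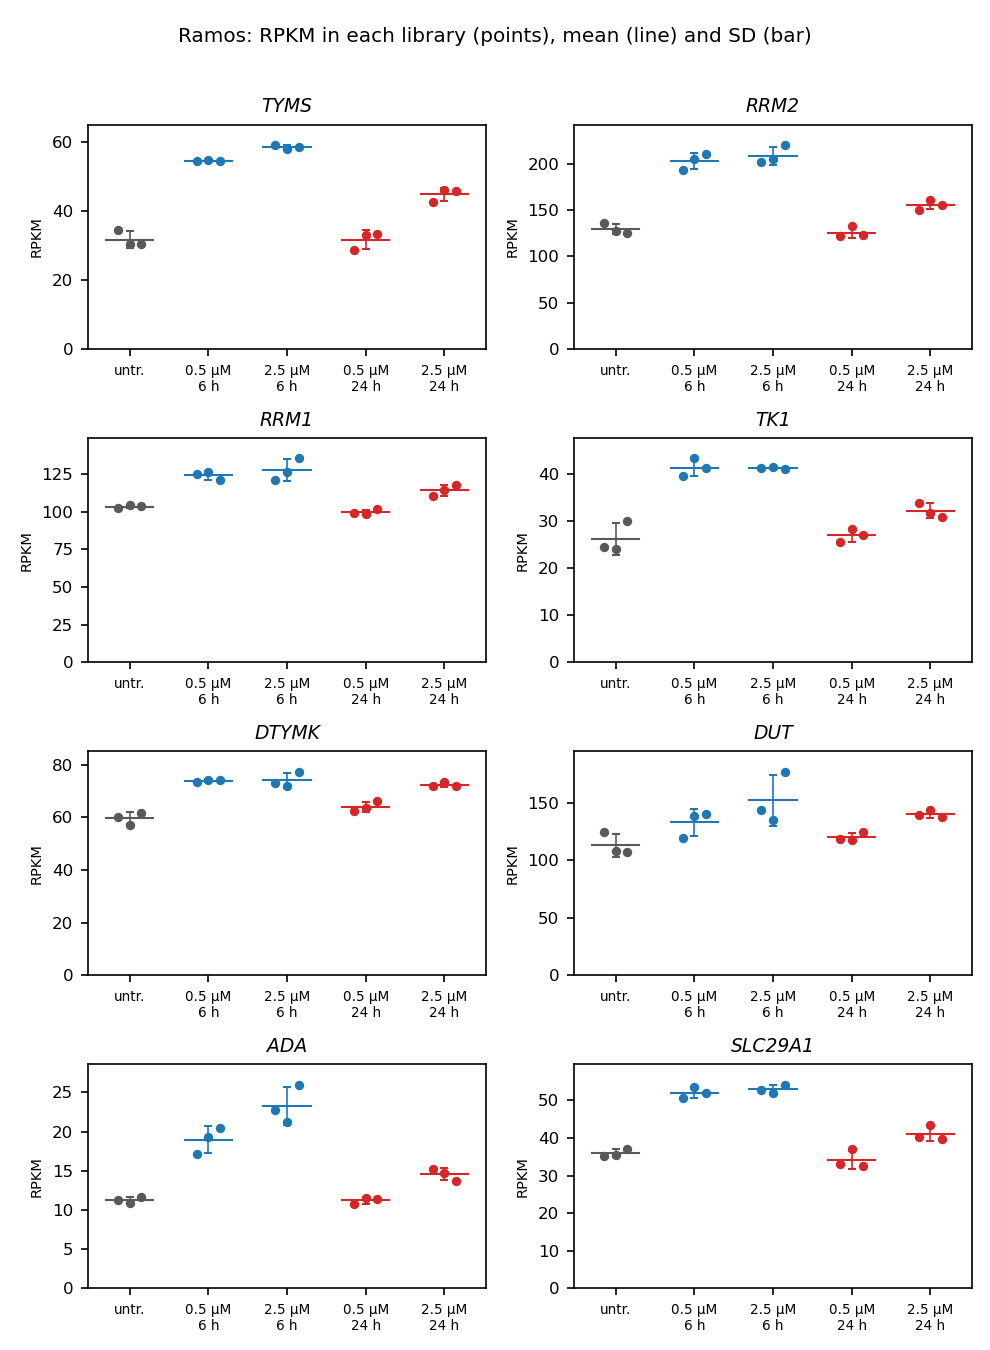
RPKM (vertical axes, from 0) of 8 genes in each Ramos library (points) by group (horizontal axes), with the mean as a line and the SD as a bar (n = 3). At 6 h TYMS, RRM2, RRM1, TK1, DTYMK, ADA and SLC29A1 lay above untreated cells in every library at both doses, and at 24 h the 0.5 μM libraries of TYMS were at 28.6, 33.1 and 33.5 RPKM beside 34.5, 30.4 and 30.5 RPKM in untreated cells.

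At 24 h members were called in Ramos cells with 2.5 μM and not with 0.5 μM. With 0.5 μM, 0 members were called by limma and 0 had an unadjusted p under 0.05, and over all 13674 genes tested 2 were called (0.0146%). The libraries of 4 members (12.5%) did not overlap with the untreated ones, against 11.5% of all genes. The differences of the members lay between -0.14 and 0.16, and the 95% intervals were -0.18 to 0.18 for TYMS and -0.17 to 0.16 for ADA. With 2.5 μM, 6 members (18.8%) rose and 0 fell, against 3.3% and 1.31% of 13607 genes, with a median of 0.14 over the members beside 0.048 over all genes. The libraries of 19 members (59.4%) did not overlap, against 27.4% of all genes. Equal sums moved the median of all genes to 0.24 and that of the members to 0.35. TYMS had 42.8, 46.1 and 45.8 RPKM, above the 3 untreated libraries, and rose by 0.49 ± 0.062 (SE), adjusted p = 0.00754. ADA had 15.3, 14.7 and 13.7 RPKM, which also lay above every untreated library, and rose by 0.36 ± 0.067 (SE), adjusted p = 0.0256. DUT had 125, 108 and 107 RPKM in untreated cells and 139.7, 144 and 137 RPKM at 2.5 μM, and rose by 0.31 ± 0.06 (SE), adjusted p = 0.0269. Replicate 1 was the highest of the untreated DUT libraries and still below each treated one. DTYMK (0.28), RRM2 (0.27) and UCK2 (0.20) were the others called, with adjusted p from 0.0142 to 0.0313. TK1 was at 0.30 without a call (adjusted p = 0.0854).

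None of these 6 calls at 24 h held under every alternative run. Of them, 3 were called with median-ratio scaling and 0 with no filter on low values, whereas 30 of 32 members were called higher with equal-sum scaling. Without replicate 1, 2 or 3 of 2.5 μM, 1 member was called each time, without untreated replicate 2 there were 2, and without untreated replicate 3 there were 12. Set directly against 0.5 μM, 2.5 μM gave 9 members (28.1%) higher and 0 lower at 24 h, against 2.39% and 1.86% of genes, among them TYMS (0.50 ± 0.065 (SE), adjusted p = 0.00549), ADA (0.36 ± 0.065 (SE), adjusted p = 0.0196) and RRM2 (0.31 ± 0.045 (SE), adjusted p = 0.00871). None of these 9 calls held under every alternative run, with 5 members called under median-ratio scaling, 20 under equal sums and 0 with no filter. The count was 3, 2 and 3 without replicate 1, 2 or 3 of 2.5 μM and 3 without replicate 1 of 0.5 μM. At 6 h, 0 members were called between the doses by limma, 4 had an unadjusted p under 0.05, and 58 genes (0.429%) were called in all. The largest difference at 6 h was that of ADA, at 0.29 with a 95% interval of 0.10 to 0.48.

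Between 6 and 24 h, deoxynucleotide, salvage and transport genes came down in Ramos cells at both doses. These comparisons share their 6 h libraries with those against untreated cells. With 0.5 μM, 11 members (34.4%) were lower at 24 h than at 6 h, against 13.5% of all genes, and 1 (3.12%) was higher, against 11.9%. TYMS fell by 0.78, ADA by 0.73, RRM2 by 0.69, TK1 by 0.61 and SLC29A1 by 0.60, each with an adjusted p of 0.000194 or less, and the one that rose was GART (0.14 ± 0.045 (SE), adjusted p = 0.0429). Without replicate 2 at 6 h, 7 members were called in place of 12. With 2.5 μM, 7 (21.9%) were lower, against 10.4%, and 3 (9.38%) were higher, against 12.7%, or 5 lower and 6 higher under equal-sum scaling. ADA fell by 0.65, RRM2 by 0.42, TYMS by 0.38, SLC29A1 and TK1 by 0.36, while GART (0.20), IMPDH2 (0.20) and PFAS (0.21) rose. ADA, RRM2, SLC29A1, TK1 and TYMS were called lower under every alternative run at both doses.

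In HCT116 cells the same gene list moved in both directions. At 2 μM for 6 h, 9 members (28.1%) were higher than in untreated cells, against 15.5% of 14550 genes, and 6 (18.8%) were lower, against 31.8%. The libraries of 21 members (65.6%) did not overlap between the groups, against 57.8% of all genes. The split rested on the scaling: it was 15 higher and 2 lower with median-ratio scaling and 0 higher and 17 lower with equal sums, under which IMPDH1, NME1, NME2, PRPS1 and UMPS changed sign. The median over all genes was -0.12 as deposited and the median over the members was 0.024. Median-ratio scaling moved these medians to 0.013 and 0.17, and equal sums to -0.42 and -0.31, with the members above the median gene on each scale. RRM1 had 105, 102 and 104 RPKM in untreated cells and 86.6, 76.7 and 79.8 RPKM at 2 μM, and TK1 had 179, 177 and 184 and 144, 143 and 139 RPKM. Neither gene's groups overlapped. RRM1 fell by 0.36 (adjusted p = 0.00175) and TK1 fell by 0.34 (adjusted p = 0.0012), and these were the 2 calls kept under every alternative run. IMPDH2, the more abundant isozyme of the enzyme that commits inosine monophosphate to guanine nucleotides, had 316, 322 and 331 RPKM untreated and 281, 260.1 and 265 RPKM at 2 μM, and fell by 0.26 (adjusted p = 0.00758).

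Among the genes that were higher at 2 μM for 6 h, DCTPP1 had 38.5, 40.8 and 40.7 RPKM untreated and 57.8, 56.5 and 55.0 RPKM treated, a change of 0.49 ± 0.059 (SE), adjusted p = 0.000245. DTYMK had 38.3, 39.4 and 36.5 and 52.9, 54.0 and 51.3 RPKM, a change of 0.47 ± 0.061 (SE), adjusted p = 0.000353. CTPS1, the main cytidine triphosphate synthetase of dividing cells, had 32.5, 30.6 and 31.2 and 43.9, 38.3 and 43.1 RPKM, a change of 0.40 ± 0.071 (SE), adjusted p = 0.00166. Every treated library of the 3 genes was above every untreated one. SLC29A1 (0.39), NME1 (0.32), NME2 (0.31), UMPS (0.29), IMPDH1 (0.23) and PRPS1 (0.21) were the others called higher, the last 5 of which turned with equal sums. PAICS (-0.20), GART (-0.21) and CTPS2 (-0.24) were the others called lower. Without untreated replicate 1, 9 members were called in place of 15.

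At 10 μM for 6 h, 2 members (6.25%) were higher, against 8.84% of 14785 genes, and 5 (15.6%) were lower, against 21.2%, so both shares were below those of all genes. The libraries of 19 members (59.4%) did not overlap, against 50.2% of all genes. TK1 had 129, 125 and 87.8 RPKM and RRM1 75.5, 74.3 and 50.8 RPKM, with replicate 3 the lowest for both genes and every treated library below the untreated ones. TK1 fell by 0.68 (adjusted p = 0.016), RRM1 fell by 0.65 (adjusted p = 0.02), and PAICS, with 163, 147 and 139 RPKM against 209.8, 199 and 210.4 untreated, fell by 0.47 (adjusted p = 0.0142). PAICS encodes a bifunctional enzyme of the purine ring pathway. PRPS2 and DUT fell by 0.37 and 0.31. CTPS1 had 45.8, 45.2 and 42.8 RPKM, above every untreated library, and rose by 0.50 ± 0.089 (SE), adjusted p = 0.00669. DCTPP1, with 52.8, 47.0 and 49.2 RPKM, rose by 0.31 ± 0.093 (SE), adjusted p = 0.0417, but gave -0.18 under equal sums. The split of 2 to 5 was 4 to 3 with median-ratio scaling and 0 to 19 with equal sums. Without replicate 3 of 10 μM, the library that stood apart, 17 members were called, 6 higher and 11 lower, with all 7 of the calls kept. The count was 4 without replicate 1 of 10 μM and 1 without untreated replicate 1, 2 or 3, and none of the 7 calls held under every alternative run.

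At 24 h the called members in HCT116 cells were led by SLC29A1 and DTYMK among the genes that rose and by PPAT, PRPS2 and RRM1 among those that fell. HPRT1 had the lowest value of any member at 10 μM, -0.36, without a call. At 2 μM, 6 members (18.8%) were higher, against 16.6% of 14886 genes, and 7 (21.9%) were lower, against 10.8%. At 10 μM, 9 (28.1%) were higher, against 19.5% of 14827 genes, and 7 (21.9%) were lower, against 15.7%. The libraries of 19 members (59.4%) did not overlap with untreated ones at either dose, against 44.9% and 49.3% of all genes. SLC29A1 had 35.6, 35.9 and 32.6 RPKM in untreated cells, 47.9, 44.6 and 51.8 RPKM at 2 μM and 57.4, 52.2 and 61.5 RPKM at 10 μM. All treated libraries were above the untreated ones, and those at 10 μM were all above those at 2 μM. SLC29A1 rose by 0.46 ± 0.065 (SE), adjusted p = 0.00179 and 0.71 ± 0.069 (SE), adjusted p = 0.000108. DTYMK had 48.2, 47.3 and 51.1 RPKM at 2 μM and 54.8, 53.6 and 51.5 RPKM at 10 μM, each value above all untreated ones, and rose by 0.36 ± 0.051 (SE), adjusted p = 0.00197 and 0.48 ± 0.051 (SE), adjusted p = 0.00017. PFAS, an amidotransferase of the purine ring pathway that CTC1 overlaps on the opposite strand, had 17.9, 17.0 and 16.8 RPKM untreated, 21.1, 21.1 and 23.3 RPKM at 2 μM and 21.7, 19.9 and 23.3 RPKM at 10 μM, and rose by 0.33 and 0.32. GUK1, with 68.7, 70.5 and 76.8 RPKM untreated and 90.8, 95.4 and 87.9 RPKM at 10 μM, rose by 0.21 and 0.34.

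PPAT (ENSG00000128059, chr4:56393362-56435615), the amidotransferase that commits PRPP to purine synthesis, had 43.4, 40.9 and 45.7 RPKM in untreated HCT116 cells, 35.2, 34.5 and 35.6 RPKM at 2 μM and 35.9, 34.3 and 33.8 RPKM at 10 μM at 24 h. The treated values of both doses lay between 33.8 and 35.9 RPKM, under the lowest untreated one, and PPAT fell by 0.30 (adjusted p = 0.00448) and 0.32 (adjusted p = 0.00232). Its head-to-head neighbor PAICS (ENSG00000128050, chr4:56435741-56464579) fell by 0.15 (adjusted p = 0.0479) and 0.20 (adjusted p = 0.0118). PRPS2 had 41.6, 38.4 and 43.7 RPKM untreated, 34.9, 36.0 and 32.4 RPKM at 2 μM and 35.5, 33.4 and 30.9 RPKM at 10 μM, and fell by 0.26 and 0.30 (adjusted p = 0.0173 and 0.0072). RRM1 had 88.8, 92.1 and 80.3 RPKM at 2 μM and 89.4, 86.5 and 84.6 RPKM at 10 μM, again without overlap with untreated cells, and fell by 0.25 and 0.26. TK1 fell at both doses by 0.13 and 0.17. GART (-0.20) and RRM2 (-0.19) were called lower at 2 μM alone, and ATIC (-0.24) and DUT (-0.14) at 10 μM alone, without a call between the doses for any of these 4 genes. Of the called members, PPAT at 2 μM and DTYMK, SLC29A1, PPAT and PRPS2 at 10 μM kept their call under every alternative run. NME1, called higher at 2 μM, changed sign with equal sums. The splits depended on scaling: 3 to 10 with median-ratio scaling and 1 to 14 with equal sums at 2 μM, and 2 to 13 with equal sums at 10 μM. The 2 μM count was 7 without its replicate 1, 6 without untreated replicate 1 and 7 without untreated replicate 3, and the 10 μM count was 9 without untreated replicate 3.

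**Figure D3:**
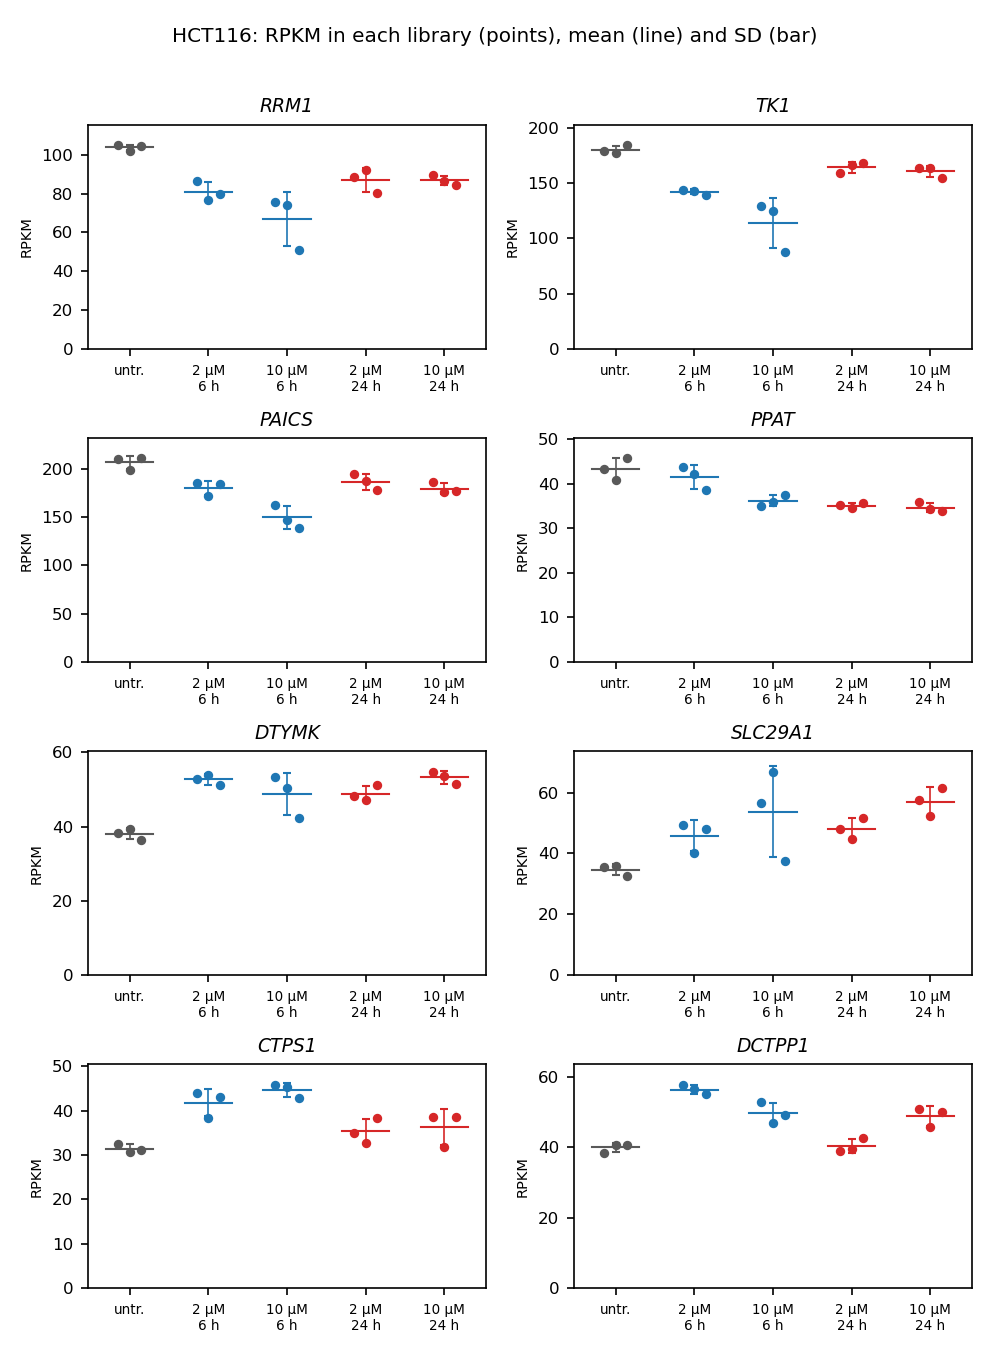
RPKM (vertical axes, from 0) of 8 genes in each HCT116 library (points) by group (horizontal axes), with the mean as a line and the SD as a bar (n = 3). TK1 and RRM1 are lowest in replicate 3 of 10 μM at 6 h, at 87.8 and 50.8 RPKM, and PPAT at 24 h lies between 33.8 and 35.9 RPKM in all 6 treated libraries.

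No member was called between the doses in HCT116 cells. At 6 h, 0 members and 0 genes were called by limma between 10 and 2 μM, with 3 members at an unadjusted p under 0.05. The differences there lay between -0.38 and 0.35, with a median of -0.18 over the members beside -0.021 over all genes. Of the 32 members, 29 lay below the median gene. The median SE of the members was 0.13, against 0.064 between the doses at 24 h, so the lack of calls at 6 h does not show equal levels. At 24 h, 0 members were called, 5 had an unadjusted p under 0.05, and 27 genes (0.18%) were called in all, none of them a member. The largest dose difference at 24 h was that of DCTPP1, 0.27 with a 95% interval of 0.13 to 0.41 and an adjusted p of 0.192. Between 6 and 24 h at 2 μM, 8 members (25%) came down, against 9.85% of all genes, and 2 (6.25%) went up, against 30.9%. HPRT1, the hypoxanthine and guanine salvage enzyme, fell by 0.50 (adjusted p = 0.00295), from 19.3, 20.8 and 20.1 to 14.5, 12.5 and 15.3 RPKM, and DCTPP1 fell by 0.48 (adjusted p = 0.00102), from 57.8, 56.5 and 55.0 to 38.9, 39.6 and 42.8 RPKM. PFAS rose by 0.43 ± 0.11 (SE), adjusted p = 0.0138. With median-ratio scaling 0 went up and 19 came down, with equal sums 6 went up and 2 came down, and only DCTPP1 held its call under every alternative run. Without replicate 1, 2 or 3 at 24 h the count of 10 became 3, 3 and 4, and without replicate 1 at 6 h it became 5. At 10 μM, 0 members were called between the times by limma and 4 had an unadjusted p under 0.05, against 1173 genes called (7.86%), and without replicate 3 at 6 h 4 members were called.

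Ratios between paired enzymes within a library do not depend on how the libraries are scaled. IMPDH1 and IMPDH2 encode the isozymes of the committed step to guanine nucleotides, and the ratio of IMPDH1 to IMPDH2 was 0.129, 0.126 and 0.119 in untreated HCT116 libraries. It was 0.162, 0.187 and 0.18 at 2 μM and 0.181, 0.182 and 0.17 at 10 μM for 6 h, and 0.149, 0.139 and 0.172 and 0.15, 0.158 and 0.158 for 24 h. All 12 treated libraries were above the 3 untreated ones, and each group against untreated gave p = 0.1 by a two-sided exact permutation test, the smallest that 3 libraries against 3 can give. Replicate 3 of 10 μM at 6 h, which stood apart in level, had a ratio of 0.17, below its mates and above the untreated libraries. In Ramos cells the ratio was 0.239, 0.254 and 0.247 untreated and 0.28, 0.281 and 0.284 at 2.5 μM for 6 h, again without overlap (exact permutation p = 0.1), while the other 3 treated groups overlapped with untreated cells.

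The cytidine triphosphate synthetases CTPS1 and CTPS2 gave a mean ratio of 4.17 ± 0.0835 (SD, n = 3) in untreated HCT116 cells. It was 6.63 ± 0.652 and 7.28 ± 0.622 at 2 and 10 μM for 6 h and 5.27 ± 0.927 and 5.14 ± 0.401 for 24 h. None of the 4 groups overlapped with untreated cells (exact permutation p = 0.1 for each). In Ramos cells the ratio was 2.43 ± 0.0552 untreated, 2.89 ± 0.0107 and 2.80 ± 0.258 at 0.5 and 2.5 μM for 6 h, and 2.65 ± 0.0501 at 2.5 μM for 24 h, all 3 without overlap, whereas 0.5 μM at 24 h overlapped (2.44 ± 0.12). PRPS1 to PRPS2 was 0.825 ± 0.0237 in untreated HCT116 cells and 1.02 ± 0.0447, 0.954 ± 0.0762, 0.989 ± 0.0753 and 1.0 ± 0.0242 in the treated groups in the same order, without overlap. In Ramos cells all 4 treated groups overlapped with untreated cells for PRPS1 to PRPS2 (1.39 to 1.60 in untreated libraries). The ratio of NME1 to NME2 overlapped with untreated cells in all 8 treated groups of the lines. The ratio of the reductase subunits, RRM2 to RRM1, was chosen after its values were seen and gets no test. It was 1.55, 1.57 and 1.57 in untreated HCT116 libraries, 1.81, 1.97 and 1.96 at 2 μM and 1.98, 1.73 and 2.89 at 10 μM for 6 h, and 1.62, 1.63 and 1.65 and 1.78, 1.62 and 1.80 for 24 h. Every treated HCT116 library was above the untreated ones, replicate 3 of 10 μM at 6 h the highest. In Ramos cells it was 1.32, 1.22 and 1.20 untreated, 1.54, 1.62 and 1.74 at 0.5 μM and 1.66, 1.62 and 1.62 at 2.5 μM for 6 h, and 1.23, 1.34 and 1.21 and 1.36, 1.40 and 1.32 for 24 h, where the 0.5 μM group overlapped with untreated cells.

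**Figure D4:**
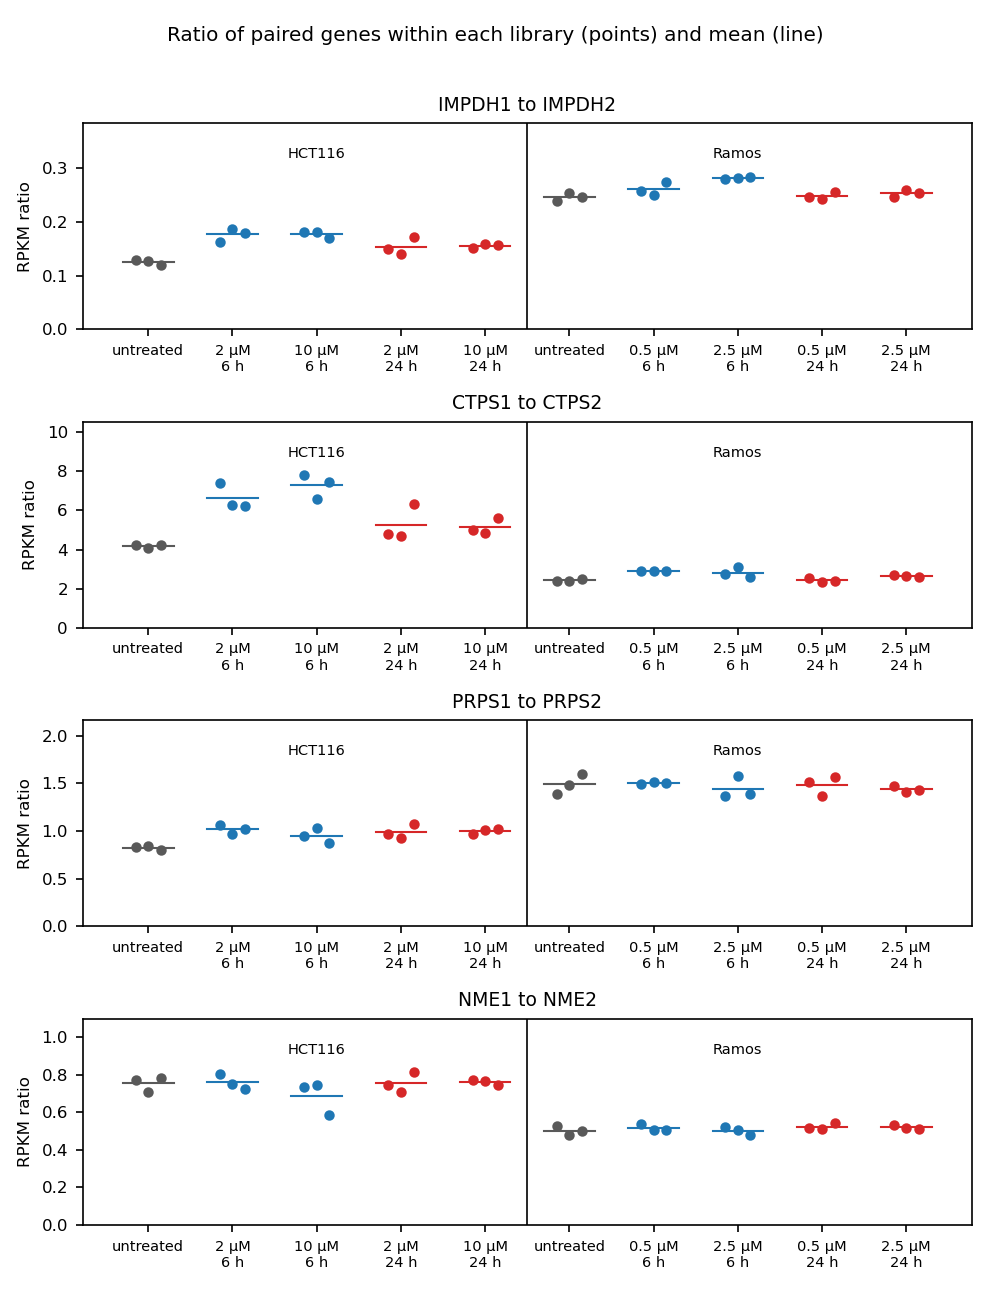
Ratio of the RPKM of paired genes in each library (points, vertical axes from 0, with the mean as a line) by group (horizontal axes, HCT116 groups left of the line and Ramos groups right of it). IMPDH1 to IMPDH2, CTPS1 to CTPS2 and PRPS1 to PRPS2 are above untreated cells in all 12 treated HCT116 libraries, and NME1 to NME2 overlaps in every group.

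The response of the lines was compared by the interaction of line and treatment, at 24 h with the highest dose of each line (10 μM in HCT116 and 2.5 μM in Ramos cells) and at 6 h with the nearest doses (2 μM and 2.5 μM). Doses and delivery differed between the lines, so that these and the line cannot be told apart. At 24 h, 2 members (6.25%) changed more upward in HCT116 cells, against 9.65% of all genes, and 11 (34.4%) changed more downward, against 12.9%. At 6 h the numbers were 4 (12.5%), against 12.2%, and 12 (37.5%), against 28.4%. TK1 was at -0.34 in HCT116 cells and at 0.66 in Ramos cells at 6 h on the log2 scale of treated over untreated, a difference of -0.997 ± 0.10 (SE), adjusted p = 2.55e-05. RRM1 was at -0.36 and 0.30 at 6 h, a difference of -0.66 ± 0.076 (SE), adjusted p = 6.85e-05. At 24 h RRM1 was at -0.26 and 0.14, a difference of -0.40 ± 0.051 (SE), adjusted p = 0.000446. ADA differed by -1.19 ± 0.16 (SE), adjusted p = 0.000163 at 6 h and was not called at 24 h (difference -0.24, adjusted p = 0.228). RRM1 and TK1 were called in opposite directions in the lines at 6 h. PPAT was called lower in HCT116 cells at 24 h and was at 0.14 without a call in Ramos cells, a difference of -0.46 ± 0.071 (SE), adjusted p = 0.00141. In the other direction, SLC29A1 was at 0.71 in HCT116 and 0.19 in Ramos cells at 24 h, a difference of 0.52 ± 0.089 (SE), adjusted p = 0.00246. Under every alternative run, 9 of the 13 calls at 24 h and 7 of the 16 at 6 h were kept, among them DUT, RRM1, RRM2, TK1 and TYMS at both times. All kept calls had the more downward change in HCT116 cells. Their shared direction could not differ, as equal sums, an alternative in that set, left 0 calls upward. The split of 2 to 11 was 0 to 23 with equal sums, and that of 4 to 12 was 9 to 7 with median-ratio scaling and 0 to 25 with equal sums.

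**Figure D5:**
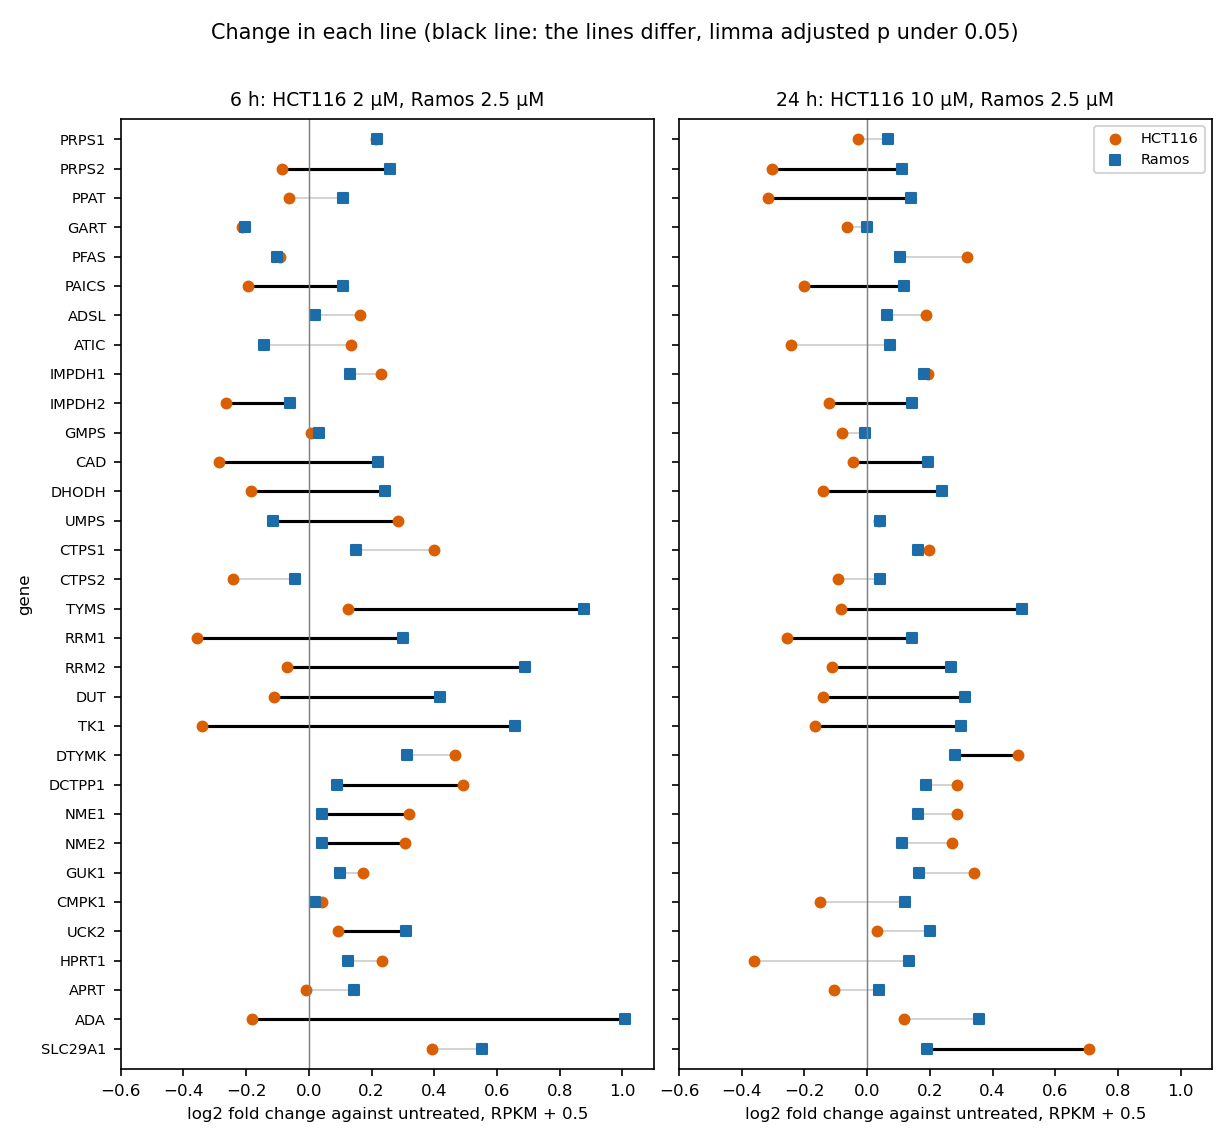
Log2 fold change against untreated cells (horizontal axes, RPKM + 0.5) of each of the 32 genes (vertical axis) in HCT116 cells (circles) and Ramos cells (squares), at 6 h on the left and 24 h on the right, with n = 3 libraries per group. Black lines join the 16 genes at 6 h and the 13 at 24 h whose change differed between the lines (limma), and for TK1 at 6 h the circle is at -0.34 and the square at 0.66.

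The 7 members with a CACGTG match did not move as 1 group. In Ramos cells 1 of 7 rose at 0.5 μM and 2 of 7 at 2.5 μM at 6 h (SLC29A1, with DHODH at the higher dose), beside 10 and 11 of the 23 members whose windows held no match. Over all genes tested, 13.8% and 17.3% rose in those 2 comparisons. In HCT116 cells at 24 h with 10 μM, 3 rose (SLC29A1, DCTPP1 and NME1) and 3 fell (PPAT, PAICS and ATIC), with DHODH at -0.14 without a call, and 5 rose and 4 fell among the 23. Over all genes tested in that comparison, 19.5% rose and 15.7% fell. The medians there were -0.14 with the match and -0.063 without. PPAT and PAICS, which share 1 site, both fell at 24 h in HCT116 cells, and at 2 μM for 6 h PAICS fell while PPAT was at -0.062 without a call.

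Genes that act next to the members were read from lists of the same pathways, against which the shares of all genes called stand above: 31.8%, 21.2%, 10.8% and 15.7% fell and 15.5%, 8.84%, 16.6% and 19.5% rose in the HCT116 groups, by dose at 6 h and then at 24 h. In Ramos cells 9.73% and 10.7% fell and 13.8% and 17.3% rose at 0.5 and 2.5 μM for 6 h. At 2.5 μM for 24 h, 1.31% fell and 3.3% rose. Of 17 tested genes of folate and one-carbon metabolism, which supplies carbon to purine and thymidylate synthesis, 8, 8, 7 and 8 fell and 2, 2, 3 and 3 rose in HCT116 cells at 2 μM for 6 h, 10 μM for 6 h, 2 μM for 24 h and 10 μM for 24 h. PHGDH, the first enzyme of serine synthesis, was at 75.6 ± 4.29 RPKM (SD, n = 3) in untreated HCT116 cells and at 33.8 ± 1.60 RPKM at 10 μM for 24 h, and fell by 1.15 (adjusted p = 4.7e-06), after falls of 1.57 and 1.83 at 6 h. SLC19A1, the reduced folate carrier, rose in all 4 groups, by 0.55 to 1.09. In Ramos cells 5 rose and 4 fell at each dose at 6 h, led by GGH, a hydrolase of folate polyglutamates (0.58 at 2.5 μM), and PSPH, the last enzyme of serine synthesis (-0.34). With equal sums the Ramos split was 5 up and 1 down at 0.5 μM and 7 up and 0 down at 2.5 μM. At 2 μM for 6 h the HCT116 folate split was 4 up and 5 down with median-ratio scaling and 1 up and 12 down with equal sums. The median of the folate list was -0.31, -0.41, -0.17 and -0.23 in the HCT116 groups, beside -0.12, -0.11, 0.041 and 0.024 over all genes tested.

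Of 20 other purine genes tested in HCT116 cells, 10, 9, 5 and 5 fell and 2, 0, 1 and 3 rose in the same order of groups, and in Ramos cells 3 of 15 fell at 2.5 μM for 6 h and 1 of 14 rose at 24 h. With equal sums those Ramos splits were 3 up and 0 down at 6 h and 10 up at 24 h, and with median-ratio scaling 0 up and 4 down and then 0 called. In the HCT116 groups 14, 16, 7 and 7 of these purine genes fell with equal sums and 0 rose in each. Median-ratio scaling gave 7, 6, 6 and 6 that fell and 4, 0, 0 and 3 that rose. Of 19 nucleotide breakdown genes in HCT116 cells, 3, 3, 2 and 3 fell and 5, 3, 5 and 5 rose. At 6 h that split was 8 up and 2 down at 2 μM and 6 up and 2 down at 10 μM with median-ratio scaling, but 1 up and 10 down and 0 up and 6 down with equal sums. UPP1, the uridine phosphorylase, rose in every HCT116 group, by 0.71, 0.86, 0.92 and 1.05, and DPYD, the first enzyme of pyrimidine breakdown, fell in every one, from 1.29 ± 0.0265 RPKM untreated to 0.841 ± 0.0461 RPKM at 10 μM for 24 h. These DPYD values are low, near the filter and pseudocount of 0.5. In Ramos cells NT5C, a nucleotidase that acts on deoxynucleotides, rose by 0.55 and 0.50 at 6 h. Of 10 other deoxynucleotide genes, 0 and 2 rose and 2 and 3 fell in Ramos cells at 6 h at 0.5 and 2.5 μM, and DGUOK, the mitochondrial deoxyguanosine kinase, fell by 0.27 and 0.31, although 0 of the 10 fell at either dose with equal sums. In HCT116 cells 4, 4, 3 and 3 of those 10 fell and 4, 0, 0 and 1 rose, with SAMHD1, which degrades deoxynucleotides, down by 0.73 at 10 μM for 6 h. With equal sums 6, 6, 8 and 7 of the 10 fell in the HCT116 groups and 0 rose in each. Median-ratio scaling gave 3, 4, 7 and 3 that fell and 4, 0, 0 and 0 that rose. Of 7 nucleoside transporters, 2 rose and 1 fell in Ramos cells at each dose at 6 h, among them SLC29A2, the second equilibrative transporter (0.54 at 2.5 μM). In HCT116 cells 3, 2, 2 and 3 of those 7 rose and 3, 0, 1 and 1 fell, led by SLC43A3, a nucleobase transporter (0.98 at 10 μM for 6 h), and with equal sums 0 rose and 3 fell at 10 μM for 6 h. Of 4 other pyrimidine genes, 0, 0, 0 and 1 rose and 0, 1, 0 and 0 fell in HCT116 cells, and 1 of 3 rose in Ramos cells at each dose at 6 h, which was UCK1 (0.29 at 2.5 μM). None of the genes named from these lists changed sign under either scaling, a check added after the data were seen.

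Genes of DNA replication were read beside the deoxynucleotide genes. Of 30 S phase replication genes, none of them a member, 18 and 24 rose and 0 fell in Ramos cells at 6 h at 0.5 and 2.5 μM, 0 were called at 24 h with 0.5 μM, and 12 rose and 0 fell with 2.5 μM. The shares that rose were 60%, 80%, 0% and 40%, beside 13.8%, 17.3%, 0.0146% and 3.3% of all genes. Their summed RPKM was 1531 to 1618 in untreated Ramos libraries, 1952 to 1995 and 1990 to 2042 at 6 h, 1475 to 1594 at 24 h with 0.5 μM, and 1759 to 1822 at 24 h with 2.5 μM. In HCT116 cells 13, 7, 12 and 11 of the 30 fell and 3, 1, 1 and 2 rose, with sums of 1840 to 1868 in untreated libraries, 1567 to 1729 and 1219 to 1620 at 6 h, and 1690 to 1713 and 1678 to 1744 at 24 h. The shares that fell were 43.3%, 23.3%, 40% and 36.7%, beside 31.8%, 21.2%, 10.8% and 15.7% of all genes, so that the share at 10 μM for 6 h was near that of all genes. The deoxynucleotide members were called in both directions in each of those 4 groups. At 2 μM for 6 h the HCT116 split was 6 up and 5 down with median-ratio scaling and 0 up and 24 down with equal sums, and the 12 that rose in Ramos cells with 2.5 μM at 24 h became 1 and 27. The lowest of these sums, 1219, is that of replicate 3 of 10 μM at 6 h. Of 20 mitosis genes, 10 and 8 fell and 4 and 6 rose in Ramos cells at 6 h, 0 were called at 24 h, and in HCT116 cells 13 and 15 fell and 2 and 0 rose at 6 h, followed by 2 and 3 that fell and 5 and 5 that rose at 24 h. Those that fell at 6 h were 50% and 40% in Ramos cells, beside 9.73% and 10.7% of all genes, and 65% and 75% in HCT116 cells, while those that rose in HCT116 cells at 24 h were 25% at each dose, beside 16.6% and 19.5%. With equal sums the Ramos mitosis split at 6 h was 4 up and 6 down at 0.5 μM. At 2.5 μM it turned to 7 up and 4 down. Median-ratio scaling gave 4 up and 10 down at 0.5 μM and 3 up and 8 down at 2.5 μM. At 24 h the HCT116 mitosis split was 1 up and 2 down and 3 up and 3 down with median-ratio scaling, and 0 up and 3 down at each dose with equal sums. All 30 S phase genes were detected at 0.5 RPKM or more in some library of every group. The part that the share of cells in each phase had in the changes of TYMS, RRM1, RRM2, TK1 and DUT was not tested.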

How the data were processed

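RNA-Seq was carried out by the authors on rRNA-depleted total RNA (TruSeq Stranded Total RNA Ribozero) from 30 libraries of 2 cell lines, and they deposited 1 table of RPKM for 57992 genes with a column per library. RSEM is named in the submitters' processing notes, and its version, the aligner, genome build, annotation and strand setting are not given in the sources used here. Some 2190 values above 0 were under 1e-06, and the number of reads is unknown, so no counting interval or detection limit is given. Groups were taken from the labels. GENCODE 29 on GRCh38 gave symbols and positions, matched on the Ensembl identifiers of the table (57388 genes matched and 604 did not).

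Log2(RPKM + 0.5) was fitted with limma 3.58.1 in R 4.3.3 (lmFit, eBayes with a trend) to the 3 libraries per group of a comparison, for genes whose RPKM averaged 0.5 or more in them, in 19 comparisons, and called at a Benjamini-Hochberg adjusted p under 0.05. Ratios were compared by two-sided exact permutation tests, for which 3 against 3 cannot go below 0.1. Fits were tested on simulated data. Per-library values are given for isozyme pairs, for the called members with the 3 largest rises and falls against untreated cells, and for some other members. Genes of other lists are given by the largest rise and fall. The members and lists were chosen with earlier results of these data known. Motifs were searched in RefSeq windows of GRCh38.p14. Alternatives were pseudocounts of 0.1 and 1, no filter, median-ratio scaling, an equal sum of RPKM, a block for the replicate number, the 5 groups of each line fitted together, and leaving out each library. The 2 scalings were applied to the other gene lists after the data were seen. Protein and chromatin data were not used.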

Additional observations from a re-analysis of the deposited data

Results flagged for a closer look

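The change with treatment differed between the lines by a test of the interaction of line and treatment (limma, called over all genes at adjusted p under 0.05) in the members given here. Each value is on the log2 scale, with the Ramos change subtracted from the HCT116 change. Doses and delivery also differed between the lines, and their part was not tested. At 6 h, with 2 μM in HCT116 and 2.5 μM in Ramos cells, the deoxynucleotide and salvage genes gave -0.75 for TYMS, -0.66 for RRM1, -0.76 for RRM2, -0.53 for DUT, -0.997 for TK1, -1.19 for ADA and -0.22 for UCK2, and the genes of PRPP, purine and pyrimidine synthesis gave -0.34 for PRPS2, -0.31 for PAICS, -0.20 for IMPDH2, -0.51 for CAD and -0.43 for DHODH. The difference was positive at 6 h for UMPS (0.40), NME1 (0.28), NME2 (0.27) and DCTPP1 (0.40), and these 4 turned negative with equal sums of RPKM. At 24 h, with 10 μM in HCT116 and 2.5 μM in Ramos cells, the deoxynucleotide and salvage genes gave -0.58 for TYMS, -0.40 for RRM1, -0.38 for RRM2, -0.46 for DUT and -0.47 for TK1, and the synthesis genes gave -0.42 for PRPS2, -0.46 for PPAT, -0.32 for PAICS, -0.27 for IMPDH2, -0.24 for CAD and -0.38 for DHODH. The difference was positive at 24 h for SLC29A1 (0.52) and for DTYMK (0.20), and DTYMK gave -0.19 with equal sums.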

How the results depend on the processing

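For the 34 single-gene results against untreated cells with the largest rises and falls, 442 values were recomputed, of which 389 kept direction and side of the threshold, 52 lost the call and 1 reversed (DCTPP1 at 10 μM for 6 h in HCT116 cells, 0.31 as deposited and -0.18 with equal sums). Over all 19 comparisons 20 of 182 member calls changed sign with equal sums and 0 with median-ratio scaling. Of 256 recomputed counts of members called, 206 stayed within 1.5 times. The cause was not tested for those that moved. The read depth behind each RPKM is unknown and limits small differences.

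Against untreated HCT116 cells, 10 μM at 6 h called 7 members, but 4 with no filter, 19 with equal sums and 14 with all 5 groups fitted together. For 2 μM at 24 h the count of 13 became 6 with no filter and 2 with the 5 groups, under which the 16 at 10 μM became 7. In Ramos cells 2.5 μM at 24 h called 6, but 0 with no filter, 3 with median-ratio scaling, 30 with equal sums and 14 with the 5 groups. Between times, 2 μM in HCT116 cells called 10, but 5 with no filter, 19 with median-ratio scaling and 6 with the 5 groups, 10 μM called 0, but 1 with median-ratio scaling and 9 with the 5 groups, and 0.5 μM in Ramos cells called 12, but 7 with no filter. Between doses, HCT116 cells at 6 h gave 0, but 1 with the 5 groups, and Ramos cells at 24 h gave 9, but 0 with no filter, 5 with median-ratio scaling and 20 with equal sums. With equal sums the interaction called 23 at 24 h and 25 at 6 h, in place of 13 and 16.

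Leaving out 1 library at a time gave 9 to 17 members at 2 μM for 6 h, 1 to 17 at 10 μM for 6 h, 6 to 12 at 2 μM for 24 h and 9 to 17 at 10 μM for 24 h in HCT116 cells. In Ramos cells it gave 7 to 13 and 11 to 16 at 0.5 and 2.5 μM for 6 h, and 0 and 1 to 12 for 24 h. Between times the ranges were 3 to 10 and 0 to 4 in HCT116 cells and 7 to 10 and 7 to 9 in Ramos cells, lower dose first, and between doses 2 to 8 in Ramos cells at 24 h and 0 in the other dose comparisons. Untreated lines gave 25 to 27, and the interactions 10 to 15 at 24 h and 14 to 18 at 6 h.

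The libraries did not meet the rule set for pairing by replicate number, which with 3 libraries per group does not show that pairing is absent. In 0 of 17 comparisons did every same-numbered pair correlate by over 0.1 in its deviations from the group means (range -0.303 to 0.184). With the replicate number as a block, 2 of 19 counts moved, 2.5 μM at 24 h in Ramos cells from 6 to 1 and its comparison with 0.5 μM from 9 to 3.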
